A study of Mus musculus with 88 samples.

Results

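The 10 genes described here are 7 transcriptional regulators of heart formation (Nkx2-5, Tbx5, Tbx20, Isl1, Hand1, Hand2, and Mef2c) and 3 genes of the contractile apparatus (Myl7, Myl4, and Tnnt2). They were chosen by name, with earlier results of these data known and no threshold on their values. All 10 were listed in each of the 4 tables, which held 53697 genes (mesoderm series), 54393 genes (endoderm series), 26007 genes (bulk embryoid bodies), and 15830 genes (single cells). The study asked how loss of subunits of Polycomb Repressive Complex 2 (PRC2), which methylates lysine 27 of histone H3 at silenced developmental genes, alters the way mouse embryonic stem cells (mESCs) leave pluripotency. MTF2 belongs to the PRC2.1 form of the complex, JARID2 to the PRC2.2 form, and EED to the core of both. In the directed series, monolayers of E14 (WT) mESCs and of the Mtf2 null and Jarid2 null lines were sequenced undifferentiated (UD) and after 5, 24, and 48 h of treatment toward lateral mesoderm or definitive endoderm, with 2 libraries per genotype and time. Bulk embryoid bodies (EBs), aggregates that differentiate once leukemia inhibitory factor is removed, were sequenced at days 0, 2, 4, and 7 as 1 sample per line and day from lines labelled Mtf2 null, Jarid2 null, and Eed null and from their background-matched WT lines Pcl1-3 WT, JM8, and J1. Most of these samples were deposited as 2 columns, whose reads were summed here into 1 sample, so the spread between columns was not used in the tests. The column names mark the day 0 samples as mono (monolayer) and later ones as eb. Day 0 and culture format thus cannot be told apart in this series, which is called bulk EBs throughout. Single cells came from EBs of E14 and of each mutant (Mtf2, Jarid2, or Eed null) at days 0, 4, 7, and 10, with 1 library per genotype and day. The Mtf2 null line carries a gene trap, each mutant is a line of its own, and the WT of the directed and single-cell experiments was E14 throughout, so genotype and line cannot be told apart there. EBs for single-cell libraries were pooled over plates, and live cells were sorted.

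The vertebrate heart forms from lateral mesoderm, from progenitors called the first and the second heart field, and a small set of transcription factors acts in them before any cell contracts. NKX2-5 (a homeodomain protein), TBX5 and TBX20 (T-box proteins), HAND1 and HAND2 (basic helix-loop-helix proteins), and MEF2C (a MADS-box protein) activate genes of heart muscle, and ISL1, a LIM-homeodomain protein, marks progenitors of the second field. Several of these factors also act outside the heart, HAND1 in extraembryonic mesoderm and trophoblast, HAND2 and TBX5 in limb mesenchyme, ISL1 in motor neurons, and MEF2C in blood vessels, lymphocytes, and skeletal muscle. MYL7 is the regulatory myosin light chain of the atrium, MYL4 is an essential light chain of the atrium and of embryonic muscle, and TNNT2 is cardiac troponin T, which ties the troponin complex to the thin filament.

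PRC2 is known to bind promoters rich in unmethylated CpG dinucleotides, so the promoters of the members whose levels separated the genotypes are shown with each CG in capitals. The windows hold 300 bases, from 250 before to 50 after the start of a RefSeq transcript in GRCm38.p6, and are written 5′ to 3′ on the strand of the gene. Tbx20 is at chr9:24774254-24774553 (minus strand) and Myl4 at chr11:104550413-104550712 (plus strand), 2 genes that moved in opposite directions in Mtf2 null cells. Myl7 is at chr11:5898733-5899032 (minus strand) and Tnnt2 at chr1:135836084-135836383 (plus strand), the other 2 contractile genes. Myl7 was also lower in undifferentiated Mtf2 null cells of the mesoderm series, and Tnnt2 was not tested in the directed series. Each window spans sequence upstream of the gene and the first bases of its first exon.
Tbx20: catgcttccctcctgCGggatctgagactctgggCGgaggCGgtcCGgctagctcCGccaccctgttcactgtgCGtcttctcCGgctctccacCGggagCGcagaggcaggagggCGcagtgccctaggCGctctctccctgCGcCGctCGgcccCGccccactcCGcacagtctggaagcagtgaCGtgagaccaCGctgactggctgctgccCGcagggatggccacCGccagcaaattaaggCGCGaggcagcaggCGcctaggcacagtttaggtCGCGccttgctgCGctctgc
Myl4: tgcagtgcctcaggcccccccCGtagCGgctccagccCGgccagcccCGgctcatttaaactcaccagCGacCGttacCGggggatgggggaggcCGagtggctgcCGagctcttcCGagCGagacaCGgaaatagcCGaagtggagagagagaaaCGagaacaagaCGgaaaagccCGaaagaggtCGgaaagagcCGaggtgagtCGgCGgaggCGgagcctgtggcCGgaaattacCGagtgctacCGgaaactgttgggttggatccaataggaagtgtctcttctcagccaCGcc
Myl7: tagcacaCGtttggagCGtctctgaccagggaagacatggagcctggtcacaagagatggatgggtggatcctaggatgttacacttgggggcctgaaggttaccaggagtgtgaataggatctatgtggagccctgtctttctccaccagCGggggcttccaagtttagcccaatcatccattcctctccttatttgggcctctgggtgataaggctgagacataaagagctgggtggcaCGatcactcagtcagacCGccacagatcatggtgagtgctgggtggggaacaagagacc
Tnnt2: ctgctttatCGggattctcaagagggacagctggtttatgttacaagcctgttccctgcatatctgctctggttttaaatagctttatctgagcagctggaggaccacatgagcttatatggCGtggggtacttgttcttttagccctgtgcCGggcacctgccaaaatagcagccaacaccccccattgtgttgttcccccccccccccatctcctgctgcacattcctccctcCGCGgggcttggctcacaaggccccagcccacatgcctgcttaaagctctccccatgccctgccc

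The Tbx20 window held 26 CG dinucleotides and the Myl4 window 25, against a median of 7 over 32851 mouse promoter windows of this length. The Myl7 window and the Tnnt2 window shown held 5 each. Any relation of CG counts to the levels was not tested. A window was found for 8 of the 10 members, not for Tbx5 and Hand1, and with several starts per gene these gave 11 windows. Isl1 held 37 CG dinucleotides, Hand2 17, Nkx2-5 9, the 3 starts of Mef2c 1, 10, and 4, and the other start of Tnnt2 held 1. Windows were searched on both strands for 5 motifs. AGATAA, a letter string of GATA factor sites, stood once each in the windows of Isl1, Hand2, and Tnnt2, and in 11.2% of all windows. TNAAGTG, found in sites of NKX2 factors, and TCACACC, found in T-box sites, stood in none of the 11 member windows and in 11.5% and 3.98% of all windows. TATAAA stood in 2 of the 3 Mef2c windows and in 13.6% of all windows, and the MEF2 site stood in none of the member windows and in 3.19% of all. These are matches of letters and not sites of binding.

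The gene bodies of the members lie on 7 autosomes in GRCm38 (GENCODE mouse release 21). Tbx20 spans chr9:24718138-24774303, Hand1 chr11:57828705-57832818, Myl4 chr11:104550663-104595753, Myl7 chr11:5896637-5898782, and Tnnt2 chr1:135836354-135852260. Of Hand2 (chr8:57320983-57324633), 1951 exonic bases lie within the span of the antisense gene Hand2os1, and 22 of Myl4 lie within that of Gm22000. Whether these stretches are exonic in the antisense genes was not examined. The strand setting of the authors' counting is not given in the sources used here, so reads of these overlapping stretches cannot be assigned with certainty.

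Libraries held 9111880 to 16898264 counts in the mesoderm series, 9889592 to 16372804 in the endoderm series, and 4071242 to 30457254 reads per sample in bulk EBs. The single-cell table held 38564606 UMIs in 4949 cells, and the median UMI count per cell of a library ran from 4997 to 10603. The 384 barcodes of the single cells are well names that each stood in at least 2 libraries, since each plate used the same set. Mtf2 stood at 30.2 to 38.2 CPM (counts scaled to 1000000 per library by TMM) in the Mtf2 null libraries of the directed series and at 206 to 509 CPM in WT. In single cells, Eed stood at 1.33 to 11.5 UMI CPM in Eed null libraries against 115 to 478 in WT, and Jarid2 at 115 to 185 in Jarid2 null libraries against 215 to 594. The Jarid2 transcript was not called lower in undifferentiated Jarid2 null cells of the mesoderm series (log2 fold change -0.40), so it does not check that label. In bulk EBs at day 0 the labels went against the transcripts: Mtf2 stood at 317 CPM where the label says Mtf2 null and at 131 CPM where it says Jarid2 null, and bulk EB samples are therefore named by their labels.

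In the directed series, Tbx20, which is needed for growth of the heart tube and its chambers, was the regulator with the clearest genotype difference, and it was higher in Mtf2 null cells before any inducing factor had been added. Undifferentiated WT libraries of the mesoderm series held 1.58 and 1.96 CPM of Tbx20, Mtf2 null libraries 12.2 and 11.7 CPM, and Jarid2 null libraries 0.912 and 1.21 CPM. The undifferentiated libraries of the endoderm series, a separate set, held 1.33 and 2.44 CPM in WT, 11.5 and 9.26 CPM in Mtf2 null, and 0.969 and 1.46 CPM in Jarid2 null cells. In both series the Mtf2 null libraries lay above every WT and Jarid2 null library, with no overlap. The log2 fold change of Mtf2 null over WT was 2.75 ± 0.25 (approximate SE, n = 2 and 2, adjusted p = 3.39e-08 by edgeR's quasi-likelihood test) in the mesoderm series and 2.46 ± 0.26 (adjusted p = 1.86e-07) in the endoderm series. Each ± of the directed series is the absolute fold change over the square root of the F statistic of that test. The spread behind it was estimated over all 24 libraries of a series. Mtf2 null cells also exceeded Jarid2 null cells, by 3.48 (adjusted p = 3.28e-09) and 3.11 (adjusted p = 9.20e-09) on the log2 scale. In these as in all bulk data, more cells with the transcript and more transcript per cell cannot be told apart. The study describes the duplicates as technical, so the p-values measure only the spread between these libraries.

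Under mesodermal induction the Tbx20 difference narrowed, since Tbx20 rose in WT and Jarid2 null cells by 48 h and Mtf2 null cells held a higher level from the start. At 5 h WT libraries held 2.98 and 3.13 CPM of Tbx20, Mtf2 null 11.3 and 9.88 CPM, and Jarid2 null 2.13 and 2.90 CPM. At 24 h the values were 1.99 and 1.53 CPM in WT, 7.79 and 8.20 CPM in Mtf2 null, and 1.36 and 1.78 CPM in Jarid2 null cells. At 48 h WT stood at 5.82 and 7.42 CPM, Mtf2 null at 11.0 and 11.9 CPM, and Jarid2 null at 7.49 and 11.5 CPM, so that Jarid2 null and Mtf2 null libraries overlapped. The log2 fold change of Mtf2 null over WT was 1.79 ± 0.23 at 5 h (adjusted p = 6.05e-06), 2.19 ± 0.25 at 24 h (adjusted p = 1.45e-06), and 0.80 ± 0.21 at 48 h, below the fold limit (adjusted p = 0.00638). From UD to 48 h Tbx20 rose by 1.88 ± 0.25 in WT (adjusted p = 7.72e-06) and by 3.16 ± 0.27 in Jarid2 null cells (adjusted p = 1.69e-08), and its change in Mtf2 null cells was -0.07 ± 0.20 (adjusted p = 0.854). The test of the difference itself gave -1.95 ± 0.32 for Mtf2 null against WT (adjusted p = 3.78e-04). Without replicate 1 the adjusted p of that difference was 0.0178, and without replicate 2 it was 0.0142, both above the limit of 0.001.

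Under endodermal induction WT Tbx20 did not climb at 48 h and the Mtf2 null excess held. WT libraries held 4.17 and 3.60 CPM at 5 h, 2.03 and 2.24 CPM at 24 h, and 1.47 and 2.07 CPM at 48 h. Mtf2 null libraries held 14.4 and 13.9 CPM, 10.8 and 12.8 CPM, and 5.01 and 6.98 CPM at the same times. Jarid2 null libraries stayed between 1.77 and 3.33 CPM, next to WT. The column headers of the Jarid2 null libraries of 48 h in the endoderm series give another hour than their labels, and the labels were followed for every value of that group. Tbx20 was higher in Mtf2 null cells by 1.86 ± 0.23 at 5 h (adjusted p = 2.17e-06), 2.46 ± 0.24 at 24 h (adjusted p = 1.03e-07), and 1.76 ± 0.27 at 48 h (adjusted p = 2.43e-05). Leaving out 1 replicate moved some of these calls past the limit: the adjusted p was 0.00121 at 5 h without replicate 2, and at 48 h it was 0.00122 and 0.00222 without replicate 1 and 2. In the mesoderm series it was 0.00270 at 5 h without replicate 1 and 0.00156 at 24 h without replicate 2. For the WT rise from UD to 48 h of that series it was 0.00135 without replicate 2.

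Hand1, which is needed for extraembryonic mesoderm and for the left ventricle, appeared in the mesoderm series at 48 h in all 3 genotypes. Before that time no library exceeded 1 CPM. At 48 h WT libraries held 4.51 and 5.87 CPM, Mtf2 null libraries 9.72 and 7.69 CPM, and Jarid2 null libraries 11.8 and 15.9 CPM. All 4 mutant libraries lay above both WT libraries. The rise from UD was 5.13 ± 0.55 in WT (adjusted p = 7.38e-07), 3.97 ± 0.43 in Mtf2 null (adjusted p = 1.23e-06), and 4.62 ± 0.41 in Jarid2 null cells (adjusted p = 5.96e-08) on the log2 scale, and the fitted size of such a rise from near 0 depends on the prior count. Between genotypes at 48 h the log2 difference from WT was 0.75 ± 0.31 in Mtf2 null (adjusted p = 0.0846) and 1.42 ± 0.31 in Jarid2 null cells (adjusted p = 0.0184), neither of which passed the limit. Without replicate 1 the adjusted p of the rise in Mtf2 null cells was 0.00110. In the endoderm series no library held more than 1.27 CPM of Hand1.

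The other regulators were scarcely present at these early times. Isl1 reached at most 1.47 CPM in the mesoderm and 1.65 CPM in the endoderm series. Tbx5 reached 1.04 CPM in the mesoderm series and 0.724 CPM in the endoderm series, where it did not pass the filter on low counts. Nkx2-5 held 0 to 12 counts per library, Mef2c 0 to 5, and Hand2 0 to 3, and none of the 3 was tested. Hand2os1, the antisense neighbour of Hand2, held 7 to 50 counts over the same libraries, so it was transcribed where Hand2 was at or near 0.

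Of the contractile genes, Myl4 was lower in Mtf2 null cells, the reverse of Tbx20, in both series and from the undifferentiated state on. Undifferentiated WT libraries held 12.0 and 13.1 CPM of Myl4 in the mesoderm series, Mtf2 null libraries 0.467 and 1.45 CPM, and Jarid2 null libraries 7.63 and 5.55 CPM. In the endoderm series the values were 9.38 and 11.8 CPM in WT, 0.924 and 1.46 CPM in Mtf2 null, and 6.07 and 5.84 CPM in Jarid2 null cells. The 3 genotypes did not overlap, and Jarid2 null libraries lay between the others. The log2 fold change of Mtf2 null over WT was -3.73 ± 0.39 in the mesoderm series (adjusted p = 2.90e-07) and -3.15 ± 0.30 in the endoderm series (adjusted p = 4.07e-08). Against Jarid2 null cells it was -2.80 (adjusted p = 1.87e-05) and -2.32 (adjusted p = 3.68e-06). For Jarid2 null against WT it was -0.93 ± 0.30 (adjusted p = 0.0712) and -0.83 ± 0.24 (adjusted p = 0.0361), neither of which was called.

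The Myl4 deficit of Mtf2 null cells held at most later times. In the mesoderm series WT libraries held 7.68 and 9.19 CPM at 5 h, 3.25 and 3.87 CPM at 24 h, and 7.45 and 5.71 CPM at 48 h. Mtf2 null libraries held between 0.526 and 1.42 CPM at these times, below every WT library. The log2 fold change was -3.15 ± 0.39 at 5 h (adjusted p = 3.41e-06), -1.68 ± 0.41 at 24 h (adjusted p = 0.00474, not called), and -2.32 ± 0.37 at 48 h (adjusted p = 8.13e-05). In the endoderm series it was -4.01 ± 0.37 at 5 h (adjusted p = 4.15e-08), -2.36 ± 0.35 at 24 h (adjusted p = 2.48e-05), and -2.54 ± 0.50 at 48 h (adjusted p = 3.80e-04). By then Myl4 had fallen in every genotype of the endoderm series, to 1.47 and 1.13 CPM in WT, 0.0748 and 0.352 CPM in Mtf2 null, and 1.24 and 0.716 CPM in Jarid2 null cells. The change from UD to 48 h was -3.01 ± 0.30 in WT (adjusted p = 1.13e-07), -2.40 ± 0.51 in Mtf2 null (adjusted p = 7.74e-04), and -2.60 ± 0.30 in Jarid2 null cells (adjusted p = 9.09e-07). The calls at mesoderm 48 h (adjusted p = 0.0120 and 0.00317 without replicate 1 and 2), endoderm 24 h (0.00112 and 0.00819), and the Mtf2 null change over time (0.0162 and 0.00743) did not survive leaving out either replicate, and endoderm 48 h did not without replicate 1 (0.0651). With DESeq2 the endoderm 48 h call (adjusted p = 0.00145) and the Mtf2 null change over time (0.00270) were lost too.

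Myl7 was low throughout and highest in undifferentiated WT cells, with 2.86 and 3.24 CPM in the mesoderm and 3.41 and 2.90 CPM in the endoderm series. Undifferentiated Mtf2 null libraries held 0.654 and 0.207 CPM in the mesoderm series and 0.924 and 0.597 CPM in the endoderm series. Jarid2 null libraries held 0.745 and 1.30 CPM, and 0.836 and 1.15 CPM. WT lay above both mutants without overlap. Mtf2 null differed from WT by -2.77 ± 0.51 in the mesoderm series (adjusted p = 2.04e-04) and -2.04 ± 0.48 in the endoderm series on the log2 scale (adjusted p = 0.00177, not called). The first call was lost with DESeq2 (adjusted p = 0.00112) and without replicate 1 (0.00140) or replicate 2 (0.0277). In WT, Myl7 fell by 2.42 ± 0.50 from UD to 48 h of the endoderm series on the log2 scale (adjusted p = 7.40e-04), a call lost with DESeq2 (0.00282) and without replicate 1 (0.00126) or replicate 2 (0.0382). Tnnt2 held 0 to 19 counts per library in the 2 series and was not tested. The plot of CPM by hour shows these levels for the members that were tested in both series and reached 2 CPM.

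**Figure D1:**
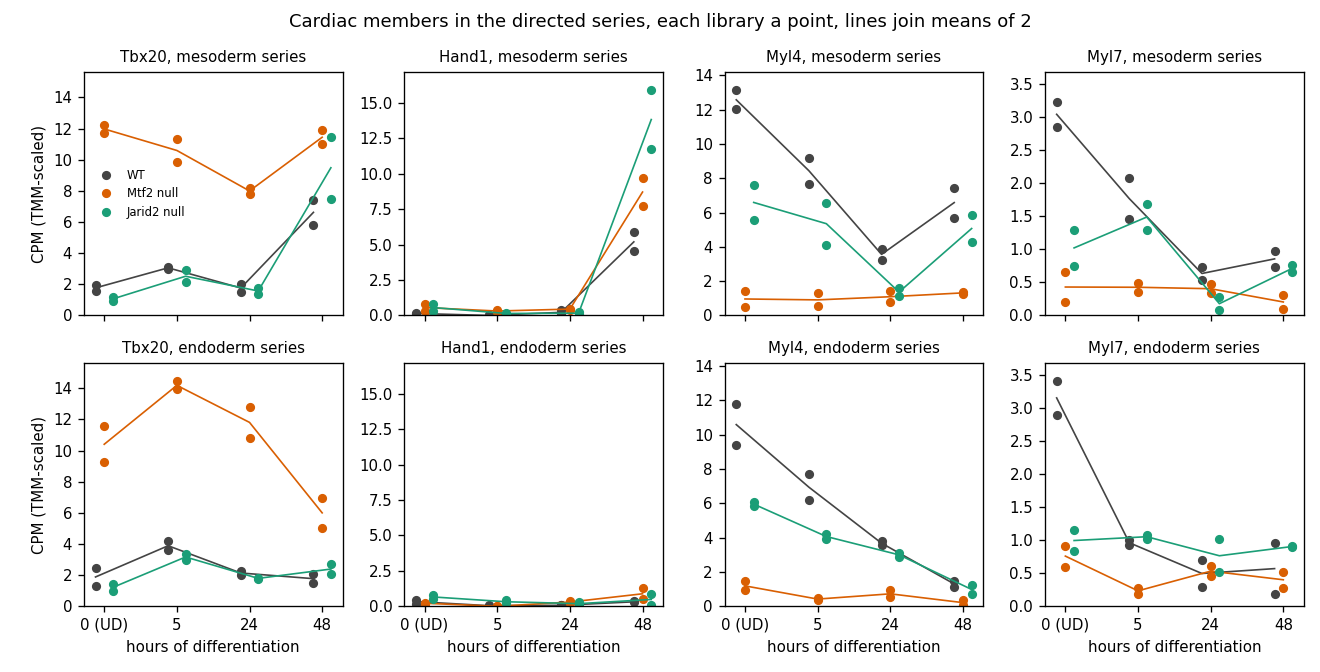
Scaled counts as CPM (vertical axis) of Tbx20, Hand1, Myl4, and Myl7 against hours of differentiation in the mesoderm series (upper row) and the endoderm series (lower row), with each library as a point and lines joining the means of 2 libraries. Undifferentiated Mtf2 null libraries sit at 9.26 to 12.2 for Tbx20 and at 1.46 or lower for Myl4, and Hand1 leaves the baseline only at 48 h of the mesoderm series.

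Counted together, 3 of the 6 members tested in the mesoderm series passed the test between Mtf2 null and WT cells when undifferentiated (1 higher, 2 lower), where 11.1% of all genes tested did. At 5 h 2 of 6 passed (7.56% of all genes), at 24 h 1 of 6 (5.72%), and at 48 h 1 of 6 (6.82%). Of the 5 members tested in the endoderm series, 2 passed at each time, with Tbx20 higher and Myl4 lower, against 11.0%, 7.61%, 6.58%, and 10.5% of all genes at UD, 5 h, 24 h, and 48 h. Between undifferentiated Mtf2 null and Jarid2 null cells the same genes, Tbx20 and Myl4, passed in both series, against 10.1% and 10.7% of all genes. Between Jarid2 null and WT cells none of the 24 tests of a member at a time passed in the mesoderm series (0.628% of all tests of genes at the 4 times), and none of the 20 in the endoderm series (0.234%). The edgeR test gave an unadjusted p under 0.05 in 9 of the 24 and 3 of the 20, DESeq2 called 0 and 0, and the smallest adjusted p was 0.0140 and 0.0234. The members were chosen with earlier results known, so these counts beside the shares of all genes are a description.

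Over time, Tbx20 and Hand1 were the members called from UD to 48 h in WT cells of the mesoderm series (8.64% of all genes called), Hand1 in Mtf2 null cells (6.28%), and Tbx20 and Hand1 in Jarid2 null cells (8.50%). Toward endoderm the members called were Myl7 and Myl4 in WT (8.15%), Myl4 in Mtf2 null (8.93%), and Myl4 in Jarid2 null cells (8.50%), all lower at 48 h. The change of the Mtf2 null difference from UD to 48 h was called for 1 of 6 members in the mesoderm series, Tbx20 (2.71% of all genes), and for 0 of 5 in the endoderm series (5.24%, with 0 at an unadjusted p under 0.05 by edgeR and 0 called by DESeq2). For Jarid2 null it was called for 0 of 6 (0.0545% of all genes, 1 at an unadjusted p under 0.05, 0 by DESeq2) and 0 of 5 (0.514%, 2 at an unadjusted p under 0.05, 0 by DESeq2).

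Among 19 other cardiac regulators, 14 were tested in each directed series, and 2 rose and 1 fell in undifferentiated Mtf2 null cells of the mesoderm series. Of all genes tested, 11.1% were called there. Gata4, a zinc-finger partner of NKX2-5 and TBX5, rose by 2.07 ± 0.20 on the log2 scale (adjusted p = 6.56e-08), from 8.67 and 6.82 CPM in WT to 30.4 and 34.4 CPM. Smarcd3, a heart-enriched subunit of the BAF chromatin remodeler, fell by 2.29 ± 0.35 (adjusted p = 2.72e-05). At 48 h of the mesoderm series Gata4 was higher by 2.86 ± 0.18 (adjusted p = 3.17e-10) and Hopx, a homeodomain-only protein of heart progenitors, by 2.06 ± 0.33 (adjusted p = 7.08e-05), with 2 of 14 regulators up and 0 down (6.82% of all genes called). At 48 h of the endoderm series 3 of 14 were up and 0 down (10.5% of all genes called), with Gata4 at 3.76 ± 0.17 (adjusted p = 2.10e-13). The median log2 fold change of the 14 at 48 h was 0.48 in the mesoderm and 0.63 in the endoderm series, against 0.01 and -0.02 over all genes tested. Markers of endoderm, in which Gata4 is also expressed, moved with these genes and with Tbx20: of Sox17, Foxa2, Epcam, and Cxcr4, 3 of 4 were higher in undifferentiated Mtf2 null cells of each series and 0 lower (11.1% and 11.0% of all genes called in the mesoderm and endoderm series). Sox17 rose by 3.35 ± 0.50 (adjusted p = 2.01e-05) and Foxa2 by 3.00 ± 0.52 (adjusted p = 1.14e-04) in the mesoderm series when undifferentiated, and at 48 h by 4.72 ± 0.47 (adjusted p = 2.15e-07) and 4.77 ± 0.48 (adjusted p = 2.14e-07). The 4 markers summed to 229.7 and 244 CPM in undifferentiated Mtf2 null libraries of the mesoderm series and to 52.5 and 57.5 CPM in WT, mostly from Epcam. In single cells the same 4 genes summed to 436 UMI CPM at day 0 and 234 at day 10 in Mtf2 null cells. In WT cells they summed to 201 and 126, so the sum does not follow endoderm alone. The part of these genes in the results was not tested.

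Of 15 other contractile genes, 11 were tested in the mesoderm series, and at 48 h 2 rose and 1 fell in Mtf2 null cells (6.82% of all genes called). Myl3, a ventricular myosin light chain, held 32 and 21 counts in Mtf2 null libraries and 1 and 0 in WT (adjusted p = 5.09e-04). Mybpc3, cardiac myosin-binding protein C, rose by 1.92 ± 0.38 (adjusted p = 7.27e-04), and Tnni3, cardiac troponin I, fell by 2.00 ± 0.39 (adjusted p = 5.38e-04). When undifferentiated, 0 of the 11 were called in the mesoderm series (11.1% of all genes), with 6 at an unadjusted p under 0.05, and 1 of the 10 tested in the endoderm series was (11.0% of all genes), Tnni3, which fell by 3.02 ± 0.54 (adjusted p = 1.34e-04). Myl3, Mybpc3, Tnni3, and Hopx at 48 h lay under 5 CPM and were named after their values were seen. The median log2 fold change of the 11 at 48 h was 0.44, against 0.01 over all genes tested.

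In bulk EBs the days served as blocks, and each line entered as 1 sample per day after its columns were summed. Levels of the regulators were highest at day 7 in most lines, and the WT lines differed widely among themselves. Hand1 stood at 1.71, 0.767, 287, and 436 CPM at days 0, 2, 4, and 7 in J1, at 0.456, 0.236, 2.59, and 138 CPM in JM8, and at 1.01, 0.124, 0.962, and 28.4 CPM in Pcl1-3 WT. The 3 WT lines thus ran from 28.4 to 436 CPM at day 7. Samples labelled Eed null held 116, 11.7, 24.6, and 203 CPM, those labelled Jarid2 null 41.7, 0.353, 68.4, and 162 CPM, and those labelled Mtf2 null 1.11, 19.7, 33.1, and 131 CPM. The day 0 samples labelled Eed null and Jarid2 null thus held Hand1 at a level that no WT line reached before day 4. The log2 fold change was 3.29 ± 0.85 for samples labelled Mtf2 null over Pcl1-3 WT (limma, adjusted p = 0.0544), 2.82 ± 0.98 for Jarid2 null over JM8 (adjusted p = 0.0903), and 1.22 ± 1.48 for Eed null over J1 (adjusted p = 0.621), and none was called. Without day 0, where the labels went against the Mtf2 transcript, the first was 4.35 (adjusted p = 0.0336) and passed the limit of 0.05, and no member passed for Jarid2 null over JM8.

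Tbx20 stood at 1.88, 1.53, 96.4, and 201 CPM over the 4 days in J1, at 4.18, 2.28, 6.33, and 39.9 CPM in JM8, and at 3.78, 2.85, 8.17, and 8.91 CPM in Pcl1-3 WT. Samples labelled Mtf2 null held 1.39, 8.73, 15.5, and 35.7 CPM, those labelled Jarid2 null 15.6, 1.94, 48.8, and 144 CPM, and those labelled Eed null 14.9, 10.5, 16.6, and 48.2 CPM. From day 2 on the samples labelled Mtf2 null lay above Pcl1-3 WT, and at day 0 below it. Over Pcl1-3 WT the log2 fold change was 0.76 ± 0.52 over the 4 days (adjusted p = 0.383) and 1.46 without day 0 (adjusted p = 0.0457). For Jarid2 null over JM8 it was 1.61 ± 0.46 (adjusted p = 0.0529), and this passed without day 2 (2.20, adjusted p = 0.0332) and with edgeR on the recovered reads (1.78, adjusted p = 0.0412).

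Nkx2-5 was the only member called in bulk EBs. Samples labelled Eed null held 2.22, 1.49, 3.54, and 5.42 CPM at days 0, 2, 4, and 7, and J1 held 0.171, 0.0959, 0.522, and 0.826 CPM. The mutant lay above its WT line on each of the 4 days, with a log2 fold change of 2.46 ± 0.36 (limma, adjusted p = 0.0188). The levels are low, and the gene passed the filter (at least 1 CPM in 4 samples) only through the 4 samples labelled Eed null. It was thus tested only because it is high in them, and the call is a description. Without any 1 of the days the gene did not pass the filter and was not tested. In Pcl1-3 WT the gene reached no more than 0.620 CPM, and samples labelled Mtf2 null held 2.52 CPM of Nkx2-5 at day 4 and 4.64 CPM at day 7, a pair in which it was not tested.

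The remaining regulators stood at 1.93 CPM or lower in every sample before day 4. Hand2 stood at 123 CPM in J1 at day 7, 89.0 CPM in samples labelled Jarid2 null, 51.5 CPM in Eed null, 25.1 CPM in JM8, 22.4 CPM in Mtf2 null, and 0.106 CPM in Pcl1-3 WT. Mef2c at day 7 stood at 56.3 CPM in J1, 38.9 CPM in Jarid2 null, 22.3 CPM in JM8, 12.1 CPM in Eed null, 5.41 CPM in Mtf2 null, and 1.17 CPM in Pcl1-3 WT. Isl1 at day 7 lay between 8.89 and 18.3 CPM in 5 of the 6 lines and at 1.70 CPM in Pcl1-3 WT, and Tbx5 between 1.63 and 5.42 CPM in the same 5 and at 0.106 CPM in Pcl1-3 WT. Pcl1-3 WT was thus the lowest line at day 7 for each of the 7 regulators, with 1 sample per line and day. The share of all genes lowest in that line was not counted.

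The contractile genes had no such shared rise. At day 7 J1 was the highest line for each of the 3, with 31.1 CPM of Myl7, 23.9 CPM of Myl4, and 15.6 CPM of Tnnt2. The share of all genes highest in J1 was not counted. Over the other 5 lines Myl7 lay between 2.23 and 6.50 CPM, Myl4 between 2.83 and 14.2 CPM, and Tnnt2 between 0.318 and 4.56 CPM. None of the contractile members was called in any of the 3 pairs. The heat map of bulk EBs shows the 24 samples side by side.

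**Figure D2:**
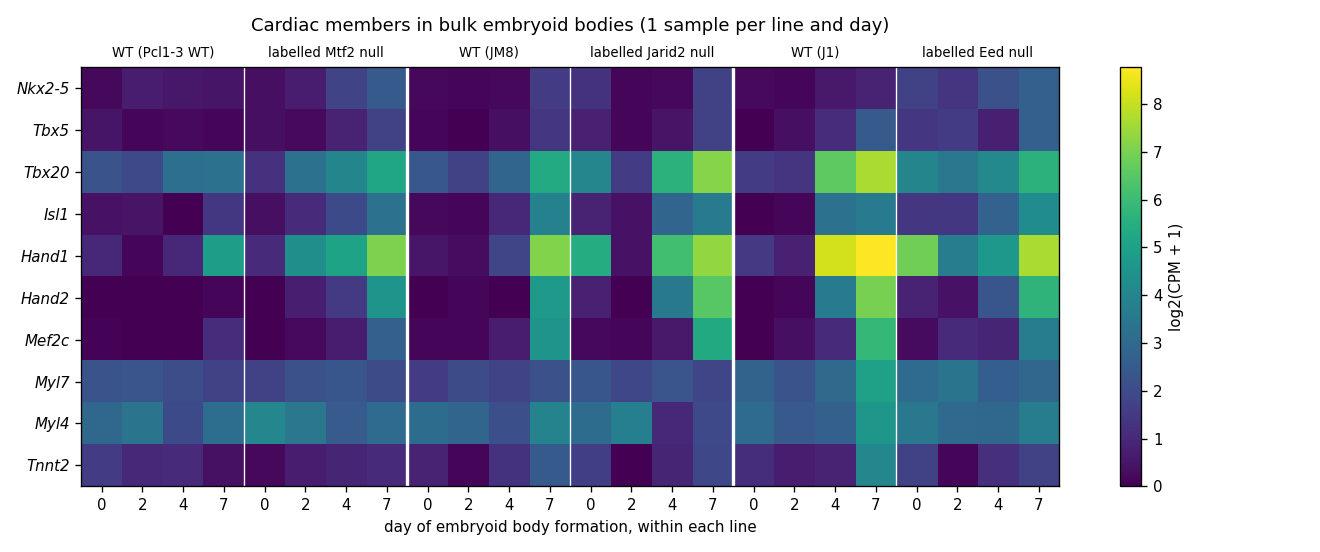
Level of the 10 members (rows) in bulk embryoid bodies as log2(CPM + 1) in colour, with 1 column per line and day and each mutant label beside its WT line. J1 at days 4 and 7 holds the highest Hand1 and Tbx20 (436 and 201 CPM at day 7), and Pcl1-3 WT holds 1.70 CPM or less of the other regulators at every day.

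Counts of members were 0 of 4 tested for Mtf2 null over Pcl1-3 WT (7.95% of all genes called), 0 of 5 for Jarid2 null over JM8 (16.5%), and 1 of 10 for Eed null over J1 (9.59%). That 1 was Nkx2-5, which passed the filter only through the samples labelled Eed null. By limma the unadjusted p was under 0.05 for 1 of the 4 and 2 of the 5, and edgeR on recovered reads called 0 and 1. The Mtf2 null and Jarid2 null fits of this paragraph include day 0, where the labels went against the Mtf2 transcript. Values without day 0 were kept for members only. Of the other cardiac regulators, 3 of 10 tested rose and 0 fell in samples labelled Mtf2 null, among them Gata4 by 4.85 ± 0.50 (adjusted p = 0.00257) and Tbx3, a T-box repressor of the conduction system, by 1.36 ± 0.20 (adjusted p = 0.0108). In samples labelled Jarid2 null 3 of 10 rose and 0 fell, with Gata4 at 4.70 ± 0.38 (adjusted p = 0.00189) and Tbx3 at 2.33 ± 0.27 (adjusted p = 0.00518). Endoderm markers moved with these genes: in samples labelled Mtf2 null 2 of 4 rose and 0 fell, Foxa2 by 2.70 ± 0.49 (adjusted p = 0.02004) and Sox17 by 2.76 ± 0.65 (adjusted p = 0.0417). In samples labelled Jarid2 null the same 2 rose, Foxa2 by 2.68 ± 0.35 (adjusted p = 0.00702) and Sox17 by 2.83 ± 0.41 (adjusted p = 0.00883), and Epcam fell by 1.01 (adjusted p = 0.0319). Over the 4 days the 4 markers summed to 116 to 268 CPM in samples labelled Mtf2 null against 87.5 to 219.6 in Pcl1-3 WT, and to 84.7 to 228 CPM in samples labelled Jarid2 null against 169 to 277 in JM8. The sum has the limit given for the directed series, and the part of these markers in the Gata4 and Tbx3 values was not tested. In samples labelled Eed null 0 of the 4 endoderm markers were called by limma (1 at an unadjusted p under 0.05), and of the other cardiac regulators 2 of 15 rose and 0 fell, Mef2d by 0.76 ± 0.09 (adjusted p = 0.0160) and Tbx1, which lay under 5 CPM and was named after its values were seen, by 1.92 ± 0.38 (adjusted p = 0.0341). Of the other contractile genes, Ryr2, the calcium release channel of heart muscle, rose by 2.05 ± 0.35 (adjusted p = 0.0169) and 1.51 ± 0.30 (adjusted p = 0.0195) in samples labelled Mtf2 null and Jarid2 null, as 1 of 11 and 1 of 13 tested, and 0 of 12 were called for Eed null, with 2 at an unadjusted p under 0.05.

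Single cells followed EBs to day 10. With 1 library per genotype and day, the spread between cultures was not measured and no test is given. Levels are UMI CPM (UMIs of a gene over 1000000 UMIs of the library), with exact 95% Poisson intervals that cover counting error only. Hand1 was the most abundant member. At day 7 it stood at 132 in WT (117 to 148), 212 in Mtf2 null (194 to 232), 26.8 in Jarid2 null (19.9 to 35.2), and 54.8 in Eed null cells (45.7 to 65.1). At day 10 it stood at 371 in WT (339 to 404), 266 in Mtf2 null (245 to 289), 143 in Jarid2 null (126 to 162), and 396 in Eed null cells (363 to 432). Mtf2 null cells were thus above WT at day 7 and below it at day 10, and Jarid2 null cells were lowest at both days. Hand1 was found in 50.5% of WT cells at day 10, 41.1% of Mtf2 null, 22.7% of Jarid2 null, and 60.9% of Eed null cells. In cluster 3, the undifferentiated WT cells, 0.299% of cells held a Hand1 UMI at a median of 8485 UMIs per cell, against medians of 4997 to 5945 in the day 10 libraries.

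Eed null cells held Hand1 before any differentiation. The day 0 library had 29.4 UMI CPM (24.0 to 35.8), found in 59 of 340 cells, against 1 UMI in 1 of 340 WT cells. At day 4 the Eed null library stood at 40.3 (32.5 to 49.5), and WT held 0 Hand1 UMIs (exact 95% upper limit 1.72). Undifferentiated Mtf2 null cells stood at 3.34 (1.78 to 5.71), from 13 UMIs in 3 of 347 cells, and at 0.337 without the cells in the lowest and highest 10% by UMIs, and Jarid2 null cells held 0 at days 0 and 4.

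Hand2 was nearly absent through day 4 in all genotypes. At day 7 it stood at 39.6 in WT, 36.98 in Mtf2 null, 7.87 in Jarid2 null, and 50.1 in Eed null cells. At day 10 it stood at 187 (165 to 211), 100.9 (88.0 to 115), 43.8 (34.5 to 54.8), and 343 (312 to 375) in the same order, and no interval overlapped another. Eed null cells thus held the most Hand2, and 65.3% of them had a UMI of it, against 0 of 335 cells of cluster 3 (exact 95% upper limit 1.10%, a limit on cells with a UMI).

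The Tbx20 interval first lay wholly above that of day 0 at day 7 in WT and Mtf2 null cells and at day 10 in Eed null cells. In Jarid2 null cells the intervals of day 0 and day 10 still overlapped. At day 0 its level was 4.35 (2.32 to 7.44) in WT, 6.17 (3.95 to 9.18) in Mtf2 null, 6.23 (3.80 to 9.62) in Jarid2 null, and 4.71 (2.69 to 7.65) in Eed null cells. These intervals overlap. The ratio of Mtf2 null (24 UMIs) to WT (13 UMIs) was 0.50 on the log2 scale, with an exact 95% interval of -0.53 to 1.60 that covers counting error only and ends below the differences of 2.75 and 2.46 in the undifferentiated directed libraries. The single-cell and directed libraries differ in method and culture, and the cause of the smaller difference was not tested. At day 7 it stood at 27.3 in WT, 33.7 in Mtf2 null, 7.87 in Jarid2 null, and 8.91 in Eed null cells. At day 10 it stood at 66.5 (53.7 to 81.5) in WT, 48.2 (39.3 to 58.3) in Mtf2 null, 14.4 (9.32 to 21.3) in Jarid2 null, and 59.7 (47.3 to 74.3) in Eed null cells. Only the Jarid2 null interval lay apart from the others.

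Isl1 stood at 31.1 in WT, 34.9 in Mtf2 null, 9.44 in Jarid2 null, and 37.8 in Eed null cells at day 7. At day 10 it stood at 32.2 (23.5 to 43.1), 50.9 (41.9 to 61.4), 50.7 (40.7 to 62.5), and 82.9 (68.2 to 99.8) in the same order. It was the only regulator of the 7 for which the Jarid2 null library was not the lowest at day 10. The share of all genes lowest in that library was not counted. Mef2c stood at 13.6 or less in every library of day 7 and at 116 (98.7 to 135) in WT, 86.6 (74.6 to 99.9) in Mtf2 null, 38.03 (29.4 to 48.4) in Jarid2 null, and 47.8 (36.8 to 61.003) in Eed null cells at day 10. Markers of blood summed to 17347 UMI CPM in the WT library of day 10, 7066 in Mtf2 null, 2193 in Jarid2 null, and 125 in Eed null cells, and the part of blood cells in the library levels of Mef2c was not tested.

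Nkx2-5 and Tbx5, the rarest regulators, were highest in Eed null cells. Nkx2-5 stood in Eed null cells at 5.89 (3.60 to 9.10), 11.5 (7.53 to 16.9), 11.0 (7.21 to 16.2), and 31.3 (22.6 to 42.4) on days 0, 4, 7, and 10. WT held 1.67 (0.543 to 3.90), 0.934 (0.113 to 3.37), 1.88 (0.513 to 4.82), and 7.87 (3.93 to 14.1), below the Eed null interval on days 4, 7, and 10. The day 10 level was 20.8 (15.2 to 27.9) in Mtf2 null and 2.88 (0.936 to 6.72) in Jarid2 null cells. Tbx5 was at or near 0 until day 10, when it stood at 41.8 (31.6 to 54.3) in Eed null, 13.9 (9.37 to 19.8) in Mtf2 null, 11.4 (6.54 to 18.6) in WT, and 1.73 (0.357 to 5.05) in Jarid2 null cells.

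The contractile members had another order, with Mtf2 null cells highest at day 10. Myl7 stood at 10.7 (6.01 to 17.7) in WT, 55.1 (45.6 to 65.9) in Mtf2 null, 2.31 (0.628 to 5.90) in Jarid2 null, and 3.73 (1.21 to 8.71) in Eed null cells. Tnnt2 stood at 12.2 (7.08 to 19.5), 52.8 (43.5 to 63.4), 2.31 (0.628 to 5.90), and 8.21 (4.10 to 14.7) in the same order. Myl4 stood at 11.4 (6.54 to 18.6), 42.6 (34.3 to 52.2), 0.576 (0.0146 to 3.21), and 17.9 (11.5 to 26.7). For each of the 3 the Mtf2 null interval lay above every other, and Jarid2 null held the fewest UMIs. The share of all genes with such an order was not counted. Tnnt2 was found in 10.3% of Mtf2 null cells, 3.27% of WT, 1.52% of Jarid2 null, and 4.46% of Eed null cells at day 10, and in 0.299% of cluster 3.

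These contractile UMIs came from few cells. In the Mtf2 null library of day 10, the 5 cells with the most UMIs of a gene held 63.03% of the Myl7 UMIs, 51.1% of the Myl4 UMIs, and 71.1% of the Tnnt2 UMIs. Without them the library stood at 20.7 for Myl7, 21.3 for Myl4, and 15.6 for Tnnt2. The Tnnt2 value then lies within the WT interval, and the Myl7 and Myl4 values lie above the WT intervals, with no cell left out of WT. The same 5-cell share was 21.4% for Hand1 and 21.2% for Tbx20. The Jarid2 null and Mtf2 null libraries of day 0 held fewer Myl4 UMIs than WT, with 1.25 (0.339 to 3.19) and 0.257 (0.00651 to 1.43) against 6.02 (3.57 to 9.52), the direction seen in the undifferentiated directed libraries. The Eed null library held more Myl7 than WT at day 0, with 8.54 (5.72 to 12.3) against 1.34 (0.365 to 3.43), and more Myl4 at day 4, with 19.5 (14.2 to 26.2) against 3.27 (1.31 to 6.73). The plot of library levels by day shows all 10 members.

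**Figure D3:**
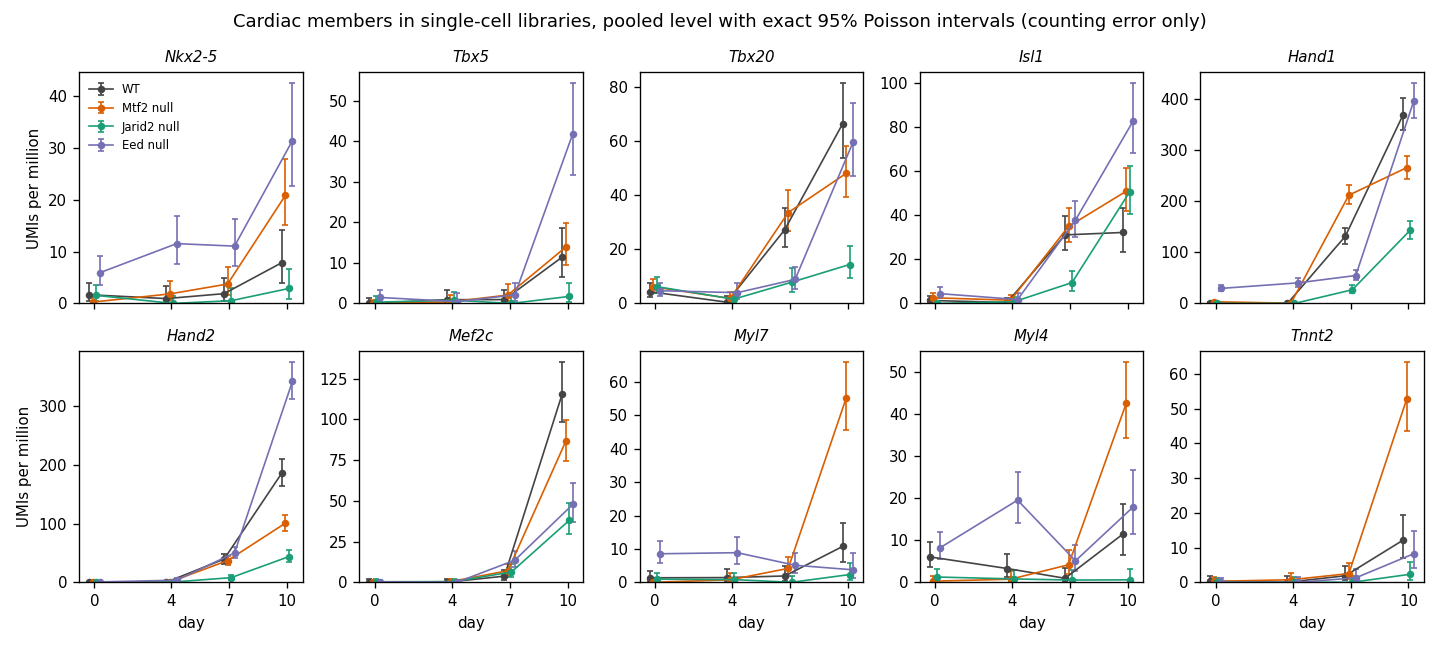
UMI CPM (vertical axis) of each member against day in the 16 single-cell libraries, coloured by genotype, with exact 95% Poisson intervals that cover counting error only. At day 10 the Eed null library leads for Hand2 (343) and the Mtf2 null library for Myl7 (55.1) and Tnnt2 (52.8), while Jarid2 null is lowest for Hand1 (143).

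By the authors' clusters (resolution 2.5, 22 clusters), the members were concentrated in cluster 4 and cluster 13. Cluster 4 held 324 cells of days 7 and 10, with 159 from Mtf2 null, 122 from WT, 40 from Jarid2 null, and 3 from Eed null EBs. Cluster 13 held 226 cells, of which 197 were Eed null, 25 Jarid2 null, 4 Mtf2 null, and 0 WT. The clusters were made from these same cells and genes, and levels by cluster are a description. Hand1 stood at 750.4 UMI CPM in cluster 4 and 352 in cluster 13, Hand2 at 267 and 342, Tbx20 at 128 and 55.4, Isl1 at 110.0 and 106, Mef2c at 94.4 and 43.5, Nkx2-5 at 24.8 and 27.05, and Tbx5 at 16.5 and 36.3. The regulators were thus present in both, with Hand1 and Tbx20 higher in cluster 4 and Tbx5 higher in cluster 13.

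The contractile members separated the clusters further. Myl7 stood at 52.7 (43.5 to 63.3) in cluster 4 and 2.64 (0.719 to 6.76) in cluster 13, Tnnt2 at 55.9 (46.4 to 66.8) and 6.60 (3.16 to 12.1), and Myl4 at 44.9 (36.5 to 54.7) and 16.5 (10.7 to 24.3). Of all UMIs in the table, cluster 4 held 74.8% of Tnnt2, 49.6% of Myl7, and 37.1% of Myl4, and 53.7% of Hand1. Among the other contractile genes, Actc1, cardiac alpha-actin, stood at 314 in cluster 4 and 8.58 in cluster 13, Ttn, the giant spring protein titin, at 209 and 48.8, and Tpm1, a tropomyosin of many muscle types, at 949.8 and 981. In cluster 4 the members were detected in 7.10% (Myl7) to 79.3% (Hand1) of cells, and the top 10 genes by fold also held Acta2, Col1a1, Rgs5, and Postn, genes of smooth muscle, pericytes, and fibroblasts. Smooth muscle markers summed to 994 in cluster 4 and 579 in cluster 13. Neither cluster is given a cell type name here.

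Outside these clusters single members stood out. Mef2c was highest in cluster 18 (187), a cluster of 114 cells whose blood markers summed to 50430 UMI CPM, and in cluster 19 (116), 57 cells whose endothelial markers summed to 2018. The other members in cluster 18 lay between 0 and 28.9. Isl1 stood at 94.8 and Hand1 at 189.7 in cluster 20, and Hand1 at 171 in cluster 14. Myl4 stood at 26.3 in cluster 9, whose cells were 257 of 258 Eed null and mostly of day 4, with Nkx2-5 at 15.3 there, Tnnt2 at 0, and Hand2 at 4.16. The heat map of clusters shows these levels with the genotype makeup of each cluster.

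**Figure D4:**
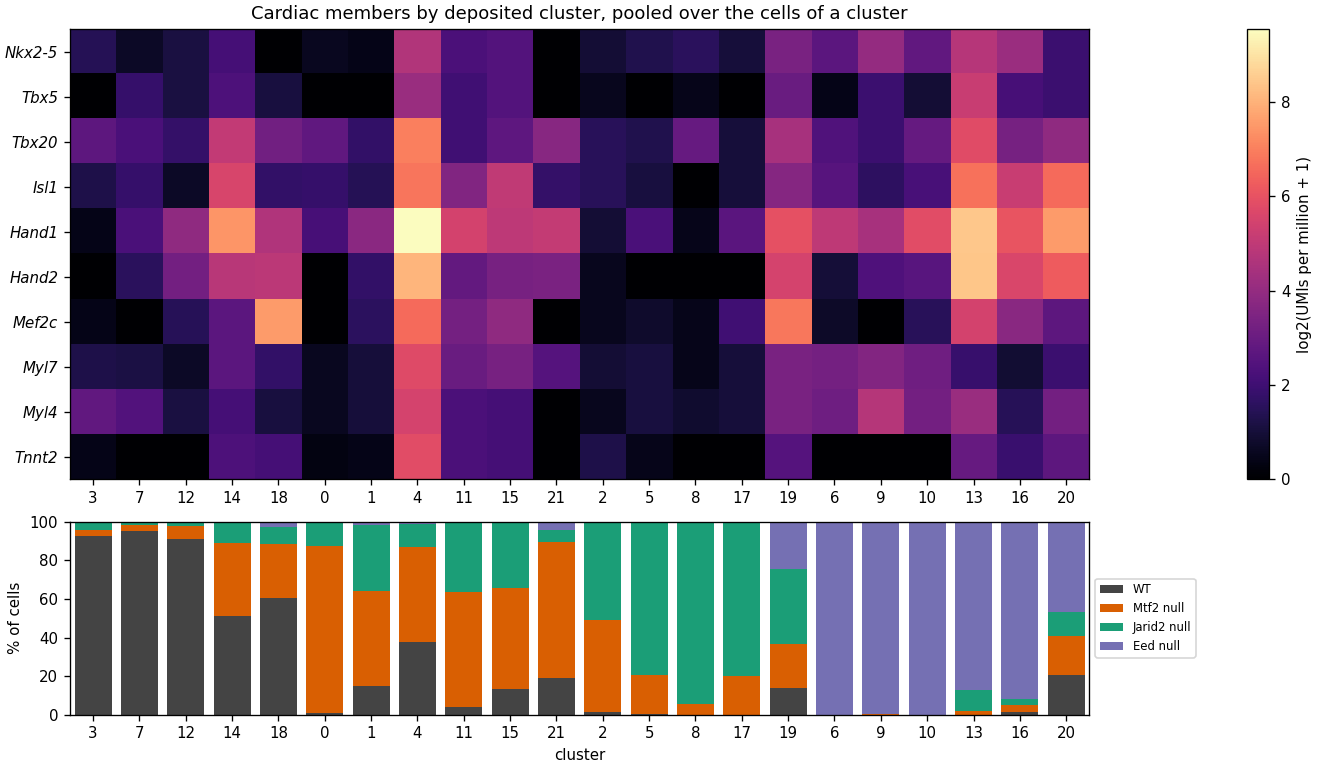
Upper panel, level of the 10 members as log2(UMI CPM + 1) in colour over the 22 clusters. Lower panel, percent of the cells of each cluster by genotype, which shows that cluster 4 (Hand1 750.4) mixes 3 genotypes and cluster 13 (Hand1 352) is 87.2% Eed null.

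Within cluster 4 at day 10, the intervals of WT and Mtf2 null cells overlapped for the sum of the 7 regulators and did not overlap for the 3 contractile genes. The regulators summed to 1739.8 UMI CPM (1628 to 1857) in 90 WT cells, 1822 (1709.8 to 1939) in 80 Mtf2 null cells, and 1102 (974 to 1242) in 33 Jarid2 null cells. The contractile members summed to 80.8 (58.3 to 109), 498 (440.2 to 561), and 16.4 (4.46 to 41.9) in the same order. The 5 cells with the most contractile UMIs held 85.7% of them in WT and 73.3% in Mtf2 null cells. Without 5 such cells in each set, a comparison chosen after seeing the data, the contractile sum was 12.4 (4.56 to 27.1) in WT and 143 (112 to 180.5) in Mtf2 null cells, and it was 0 in Jarid2 null cells. In 165 Eed null cells of cluster 13 the regulators summed to 1094 (1034 to 1157) and the contractile members to 30.96 (21.6 to 43.1), or 13.3 (7.09 to 22.8) without 5 such cells. Tnnt2 alone stood at 183 (148 to 222) in Mtf2 null and 28.9 (16.2 to 47.6) in WT cells of cluster 4, and Nkx2-5 at 68.2 (48.0 to 94.0) and 15.4 (6.65 to 30.3). Hand2 went the other way, with 332 (285 to 384) in Mtf2 null and 443 (387 to 504) in WT cells. The plot of cluster 4 and cluster 13 at day 10 gives all 10 members.

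**Figure D5:**
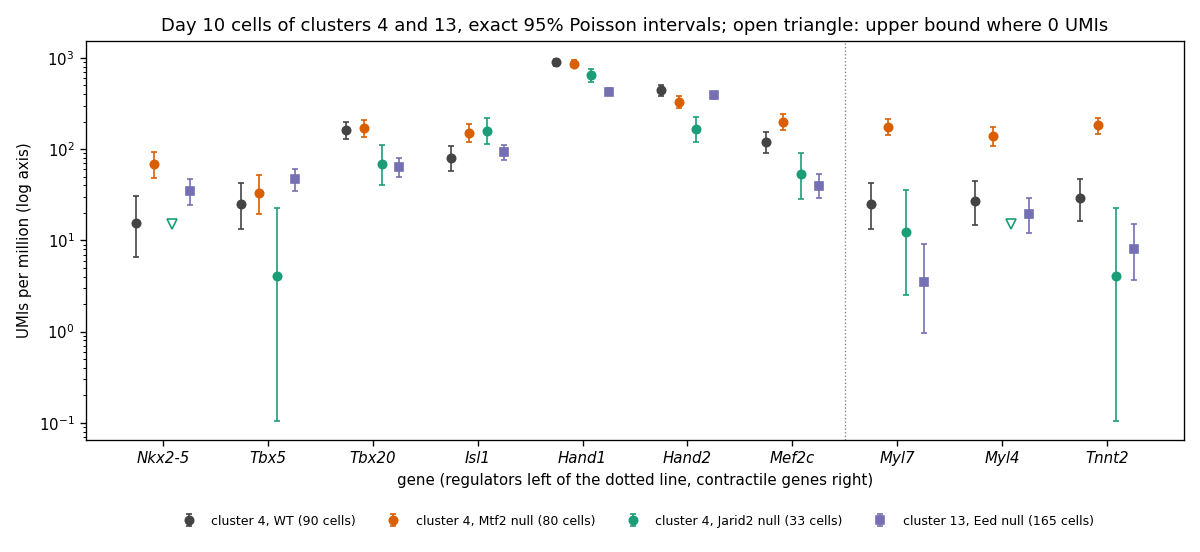
UMI CPM (log axis) of each member in day 10 cells of cluster 4 (WT, Mtf2 null, Jarid2 null, circles) and cluster 13 (Eed null, squares), with exact 95% Poisson intervals that cover counting error only and open triangles at the upper limit where no UMI was found. Mtf2 null cells lie above WT for Tnnt2 (183 and 28.9), Myl7 (177 and 25.02), and Myl4 (138 and 26.9), and next to WT for Hand1 (868 and 895) and Tbx20 (169.6 and 162).

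Cells with UMIs of at least 2 of the 3 contractile members numbered 14 of 80 (17.5%) among Mtf2 null cells of cluster 4 at day 10, 5 of 90 (5.56%) among WT, 1 of 33 (3.03%) among Jarid2 null, and 3 of 165 (1.82%) among Eed null cells of cluster 13. Median UMIs per cell were 6365, 5406, 6482, and 4994 in these sets. All 3 contractile members were found together in 8 of the 80 Mtf2 null and 1 of the 90 WT cells. At least 3 regulators were found together in 63.8% of the Mtf2 null, 57.8% of the WT, 33.3% of the Jarid2 null, and 43.6% of the Eed null cells. Of the 14 Mtf2 null cells with at least 2 contractile members, 12 also held at least 3 regulators. Over all cells, 22 Mtf2 null, 7 WT, 1 Jarid2 null, and 9 Eed null cells held at least 2 contractile members, and 20 of the 22 were of day 10.

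Across the 22 clusters, Hand1 and Hand2 were the pair of members with the most similar levels (Pearson r = 0.91 of log2 levels with 10 added), and Mef2c and Myl4 the pair with the least similar (r = 0.38). The clusters share libraries and depth and r is a description. Among 7425 genes with at least 50 UMI CPM in 1 cluster, Hand2 was most like Unc5c (r = 0.96), a netrin receptor, Tbx5 most like Adamts1 (0.95), Isl1 most like Wnt5a (0.94), and Tbx20 most like Dok4 (0.93). Mef2c was most like Tnni1 (0.93), Hand1 most like Capn6 (0.93), and Nkx2-5 most like Cox4i2 (0.90). Of the contractile members, Tnnt2 was most like Plac1 (0.90), Myl4 most like Myl7 (0.80), and Myl7 most like Tdo2 (0.79), with Tnnt2 next (0.79).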

How the data were processed

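RNA was measured in 88 samples: 24 libraries of the mesoderm series, 24 of the endoderm series, 24 bulk EB samples, and 16 single-cell libraries. The authors deposited estimated counts for the directed series, which were rounded to whole numbers here (46.5% and 43.6% of values above 0 were whole as deposited). For bulk EBs the authors deposited counts divided by a size factor, a signal in which 45 of 46 columns gave back whole reads (100% of values under 400 reads within 0.02 of a whole number), and edgeR on those reads called 994, 1926, and 989 genes for Mtf2 null, Jarid2 null, and Eed null. The remaining column, a day 0 column labelled Mtf2 null, gave no reads and was left out of them, and 0 columns of per-sample values were left unused. The single-cell table deposited by the authors held UMI counts per gene and cell, used for the 4949 cells of the deposited metadata with its clusters. Cells were sorted into wells and no doublet caller was run. The submitters' processing notes name CASAVA, Bowtie2, Salmon, HTSeq, DESeq2, and GRCm38/mm10, with no versions.

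Directed counts were scaled by TMM and fitted with edgeR 4.0.16 over all 24 libraries of a series, with 18361 genes tested toward mesoderm and 19261 toward endoderm. Calls needed an absolute log2 fold change above 1 and an adjusted p (Benjamini-Hochberg) under 0.001. Log2 CPM of bulk EBs (prior count 2, at least 1 CPM in 4 samples) were fitted with limma 3.58.1 with day as a block, calling at an adjusted p under 0.05. P-values were adjusted over all genes of a table that passed its filter, and the fits were tested on simulated data. Fold changes of low genes are shrunk toward 0 by the prior count. Single-cell levels are UMI CPM with exact Poisson intervals, and shares have exact binomial intervals, both at 95%, for counting error only. Replicate numbers did not pair the directed libraries: same-numbered libraries had correlations of deviations of -0.183 to 0.267 (median 0.00688) and -0.157 to 0.201 (median 0.0102). Other software was R 4.3.3 with DESeq2 1.42.0 and Python 3.11.15 with matplotlib 3.10.9, pandas 2.3.3, numpy 2.4.6, and scipy 1.17.1.

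The 10 members and the other gene lists were chosen with earlier results of these data known. All members are described. Of the lists, at most 3 called genes per comparison and direction with at least 5 CPM in the higher group were named, and in single cells the 3 with the highest level in cluster 4. Alternatives were DESeq2, other scalings, no filter, no fold limit, the replicate block, and leaving out each replicate or day. Leaving out the 5 cells with the most contractile UMIs was added after seeing the data.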

Additional observations from a re-analysis of the deposited data

Results flagged for a closer look

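The change of the Mtf2 null difference in Tbx20 from UD to 48 h of the mesoderm series was -1.95 ± 0.32 (approximate SE) on the log2 scale (edgeR, adjusted p = 3.78e-04), which means that the time effect differed between Mtf2 null and WT cells. Tbx20 changed by 1.88 in WT and by -0.07 in Mtf2 null cells, with 2 libraries per genotype and time. The difference was -1.90 without replicate 1 (adjusted p = 0.0178) and -2.03 without replicate 2 (adjusted p = 0.0142), both of the same direction and past the fold limit, with the adjusted p above the limit of 0.001. In the endoderm series the same contrast was -0.70 ± 0.39 (adjusted p = 0.232).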

How the results depend on the processing

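No member result called in the main fits changed direction under an alternative run that tested it. Results not called there were not compared for direction. Upper-quartile and RLE scaling kept all 25 member calls of the directed series. Calls between Mtf2 null and WT over the 4 times numbered 7 in the mesoderm series, 12 at an adjusted p under 0.05 with no fold limit, and 4 to 4 without replicate 1 or 2. In the endoderm series they numbered 8, and 5 to 5 without replicate 1 or 2. Between Jarid2 null and WT there were 0 in each series. With no fold limit at 0.05 there were 3 (mesoderm) and 2 (endoderm), and with no filter on low counts 2 in the mesoderm series, Myl4 at 24 h (-1.40, adjusted p = 7.33e-04) and Hand1 at 48 h (1.40, adjusted p = 4.98e-04). The 1 mesoderm call on the change of the Mtf2 null difference became 0 to 0 without replicate 1 or 2. The 4 endoderm calls from UD to 48 h became 2 with DESeq2, 7 with no fold limit at 0.05, 2 with the replicate block, and 2 to 2 without replicate 1 or 2. The replicate block took Myl7 in WT (adjusted p = 0.00101) and Myl4 in Mtf2 null (0.00101) past the limit and changed no other member call. In bulk EBs, 0 calls for Mtf2 null became 2 without day 0 (0 to 2 over days left out), 0 for Jarid2 null became 1 with edgeR on recovered reads and 1 without day 2 (0 to 1), and 1 for Eed null became 0 without any 1 day (0 to 0) and 0 with no day block. Over all genes, bulk EB calls for Eed null fell from 1397 to between 0 and 16 when a day was left out, to 694 with no filter, and to 8 with no day block, for Mtf2 null from 1123 to 219 with no day block and 236 to 880 with a day left out, and for Jarid2 null from 2267 to 142 and 311 to 1828. The causes were not tested, beyond the fewer samples in fits that leave some out.

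Of the single-cell values, 9 of 60 moved beyond counting error as means over cells, and 12 of 40 without cells in the lowest and highest 10% by UMIs, where Mtf2 null cells at day 10 held 43.7 (Myl7), 33.7 (Myl4), and 37.5 (Tnnt2) UMI CPM. Thinning to 2500 UMIs, which left out 492 cells, moved 43 of 60 shares of cells. Duplicates limit the directed series and 1 library per group the single cells.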
